A study of Mus musculus with 2 samples.

Results

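The single-copy let-7 genes are the 6 members of the mouse let-7 microRNA family whose symbols carry no copy number, namely Mirlet7b, Mirlet7d, Mirlet7e, Mirlet7g, Mirlet7i and Mir98. They were chosen by name, not by level, but with earlier results of these data known. They make up 6 of the 2202 microRNA genes counted. Their abundance was measured by microRNA-seq, with a size range below 30 in the labels, of the adrenal gland, whose cortex makes steroids and whose medulla makes catecholamines. There was 1 group, of 2 libraries, both from female mice of strain B6CASTF1/J aged 10 days. That strain is the F1 hybrid of C57BL/6J and CAST/EiJ, and the labels name no further allele and no treatment. Replicate 1 is labelled animal 3 and replicate 2 animal 4, each with 1 technical replicate, although both carry the same donor entry. No condition was compared with another, so the data give levels, the balance among the genes and the spread between the libraries.

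MicroRNAs are cut from hairpin precursors by Drosha and Dicer and guide Argonaute proteins to messenger RNAs, mainly through the seed near their 5′ end. The let-7 family is known for accumulating as embryonic tissues differentiate and for repressing growth genes such as Hmga2, Myc, Ras genes and Lin28 genes. LIN28 proteins in turn bind let-7 precursors, in part through a GGAG element of the terminal loop, and block their maturation.

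RefSeq (GRCm38.p6, the assembly also called mm10) held the hairpin and the 5′ arm of all 6 genes. The 5′ arms are printed below because their differences decide which reads could be told apart, with the seed (bases 2 to 8) in capitals. The mature sequences of the 3 let-7 forms that have numbered gene copies follow for comparison.
Mirlet7b (let-7b-5p): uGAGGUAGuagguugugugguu
Mirlet7d (let-7d-5p): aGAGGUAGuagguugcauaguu
Mirlet7e (let-7e-5p): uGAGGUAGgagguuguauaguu
Mirlet7g (let-7g-5p): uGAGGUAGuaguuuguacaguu
Mirlet7i (let-7i-5p): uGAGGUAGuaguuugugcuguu
Mir98 (miR-98-5p): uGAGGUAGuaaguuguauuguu
let-7a-5p, of Mirlet7a-1 and Mirlet7a-2: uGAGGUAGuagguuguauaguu
let-7c-5p, of Mirlet7c-1 and Mirlet7c-2: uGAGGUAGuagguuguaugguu
let-7f-5p, of Mirlet7f-1 and Mirlet7f-2: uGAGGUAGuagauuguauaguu

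All 6 single-copy genes share 1 seed, and 14 of the 22 positions are identical in all of them. The other 8 positions are 1, 9, 11, 12, 16, 17, 18 and 19, counted from the 5′ end. Against let-7a-5p, let-7e-5p has the single substitution U9G, let-7b-5p has A17G and A19G, and let-7d-5p has U1A and U16C. let-7g-5p has G12U and U18C, miR-98-5p has G11A and A19U, and let-7i-5p has G12U, A17G, U18C and A19U. Between any pair of the 6 the number of mismatches ran from 2 (let-7g-5p and let-7i-5p) to 6 (let-7d-5p and let-7i-5p). Each of their 5′ arms occurred in 1 hairpin of the RefSeq table, whereas let-7a-5p, let-7c-5p and let-7f-5p each occurred in 2. The label of single copy thus held for these mature sequences. The separation from the numbered copies rested on few bases, with 1 mismatch between let-7b-5p and let-7c-5p and 1 between let-7e-5p and let-7a-5p.

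**Figure D1:**
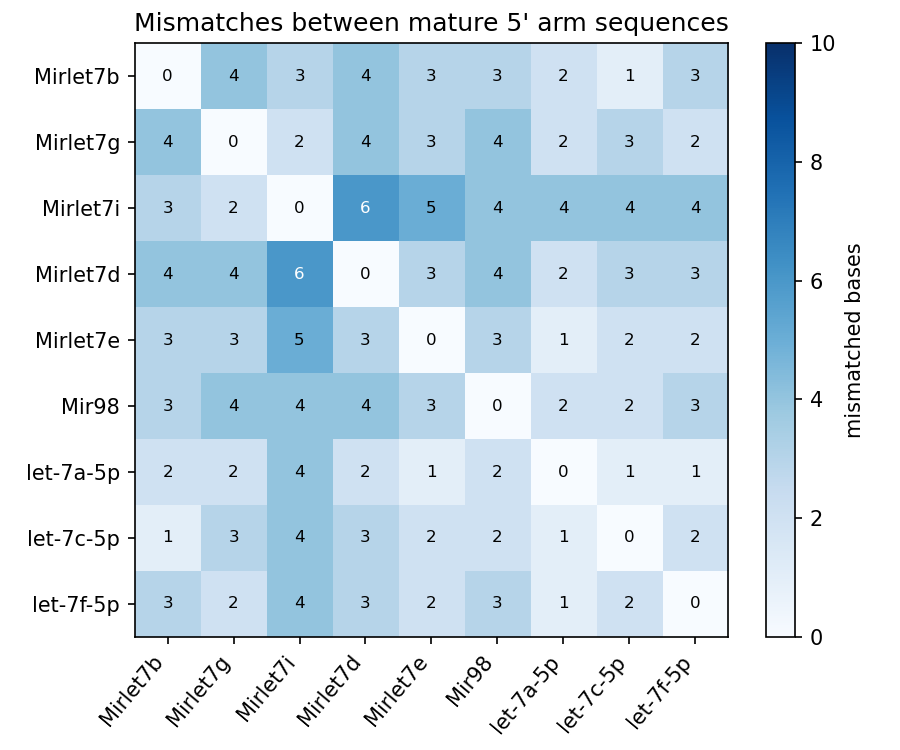
Number of mismatched bases between the 22-base mature 5′ arms of the 6 single-copy genes and the 3 let-7 forms with numbered copies (rows and columns). Mirlet7e lies 1 mismatch from let-7a-5p and Mirlet7b 1 from let-7c-5p, while Mirlet7i lies 4 from each of the 3 forms.

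The loop between the 2 arms of the hairpin is shown next for 5 of the genes, because GGAG is the element LIN28 proteins are known to bind, and that motif, where present, is in capitals.
Mirlet7b: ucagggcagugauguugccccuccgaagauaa
Mirlet7d: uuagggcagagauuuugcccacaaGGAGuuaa
Mirlet7e: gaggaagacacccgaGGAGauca
Mirlet7g: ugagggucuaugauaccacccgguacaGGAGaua
Mirlet7i: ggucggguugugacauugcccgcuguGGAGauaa

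On the transcribed strand GGAG was in the loop of 4 of these 5 genes, Mirlet7d, Mirlet7e, Mirlet7g and Mirlet7i, and ended 3 or 4 bases before the 3′ arm. It was not in this window of Mirlet7b, and binding by LIN28 proteins was not measured here. Of the 6 numbered let-7 genes, 5 had GGAG in the loop. Among 644 RefSeq hairpins with both arms annotated, 8.07% held GGAG in the loop. Among the 52 with a loop of 23 to 34 bases, the range of these 5 genes, 25% (13) did. As defined, both sets include these let-7 hairpins, so neither share is a rate for other microRNAs. The hairpin GC content of these 5 genes ran from 44.7% (Mirlet7d) to 62.4% (Mirlet7e), around a median of 51.7% over all hairpins of the table.

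The 6 genes lie on 6 chromosomes (coordinates from GENCODE M21 on mm10), and 3 lie in exons of noncoding hosts. Mirlet7b (ENSMUSG00000065564.1, chr15:85707319-85707403, plus strand) is inside exon 7 of 7 of a transcript of the noncoding gene Lncppara. Mirlet7d (ENSMUSG00000065453.1, chr13:48536012-48536114, minus strand) is inside exon 2 of 2 of the long noncoding RNA gene 6720427I07Rik. Mirlet7i (ENSMUSG00000065406.3, chr10:122985640-122985724, minus strand) overlaps D630033A02Rik, annotated as a transcribed processed pseudogene, and is exonic in 1 of its 2 transcripts and intronic in the other.

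The other 3 genes lie in introns of protein-coding hosts, on the host's strand. Mirlet7g (ENSMUSG00000065440.1, chr9:106178840-106178927, plus strand) is in an intron of 5 of the 6 transcripts of Wdr82, which encodes a subunit of a histone methyltransferase complex. Mir98 (ENSMUSG00000065536.2, chrX:151913214-151913321, plus strand) is in an intron of 2 of the 23 transcripts of Huwe1, which encodes a ubiquitin ligase. Mirlet7e (ENSMUSG00000105758.1, chr17:17830352-17830444, plus strand) is in an intron of 2 of the 16 transcripts of Spaca6, which encodes a sperm protein. A further annotated microRNA gene, Gm25927, covers Mirlet7e on the opposite strand and had 0 counts in both libraries. Host transcripts were not measured here.

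Levels are given as CPM, same-strand reads of the gene per 1000000 reads assigned to microRNA genes. A read spans about a whole mature microRNA, so CPM was not divided by gene length. All 6 genes exceeded 1000 CPM in both libraries, as did 78 of the 2202 genes (3.54%). Their summed share of assigned counts averaged 17.0% ± 2.42 (SD, n = 2). It was 15.2% in replicate 1, with an exact Clopper-Pearson 95% interval from 15.2 to 15.3%, and replicate 2 reached 18.7% (18.6 to 18.7%). Such intervals cover counting error only. As counted, 3 of the 6 were among the 20 most abundant microRNA genes by mean CPM. Reads aligned to several places were left out of all counts, so genes with several copies may rank too low, here and below.

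Mirlet7b reached 46728 CPM in replicate 1 against 75959 CPM in replicate 2, a mean of 61343 ± 20669.6 CPM (SD, n = 2). Mirlet7g stood at 54169 and 48930.4 CPM, a mean of 51549.7 ± 3704 CPM (SD, n = 2). The ranges of these genes overlapped, and each was the highest of the 6 in 1 library, so their order differed between the libraries. Mirlet7i followed at 32678 and 36762 CPM (mean 34719.9 ± 2888, SD, n = 2), and its range lay below that of Mirlet7g. The 3 genes held ranks 3 to 5 among all microRNA genes by mean CPM.

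A second tier lay lower. Mirlet7d was counted at 8534 and 12259 CPM (mean 10396 ± 2634, SD, n = 2), rank 24 by mean CPM. Mirlet7e was counted at 7870.4 and 9957 CPM (mean 8914 ± 1476, SD, n = 2), rank 26. The ranges of Mirlet7d and Mirlet7e overlapped, although Mirlet7d was above Mirlet7e in both libraries. Per 100 bases of hairpin, an alternative scale, Mirlet7e (6544 after rescaling to the CPM total) was slightly above Mirlet7d (6407) in replicate 1. Mir98 was the lowest at 2468 and 2789 CPM (mean 2628 ± 227, SD, n = 2), rank 55, and the ratio of Mirlet7b to Mir98 was 18.9 and 27.2.

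**Figure D2:**
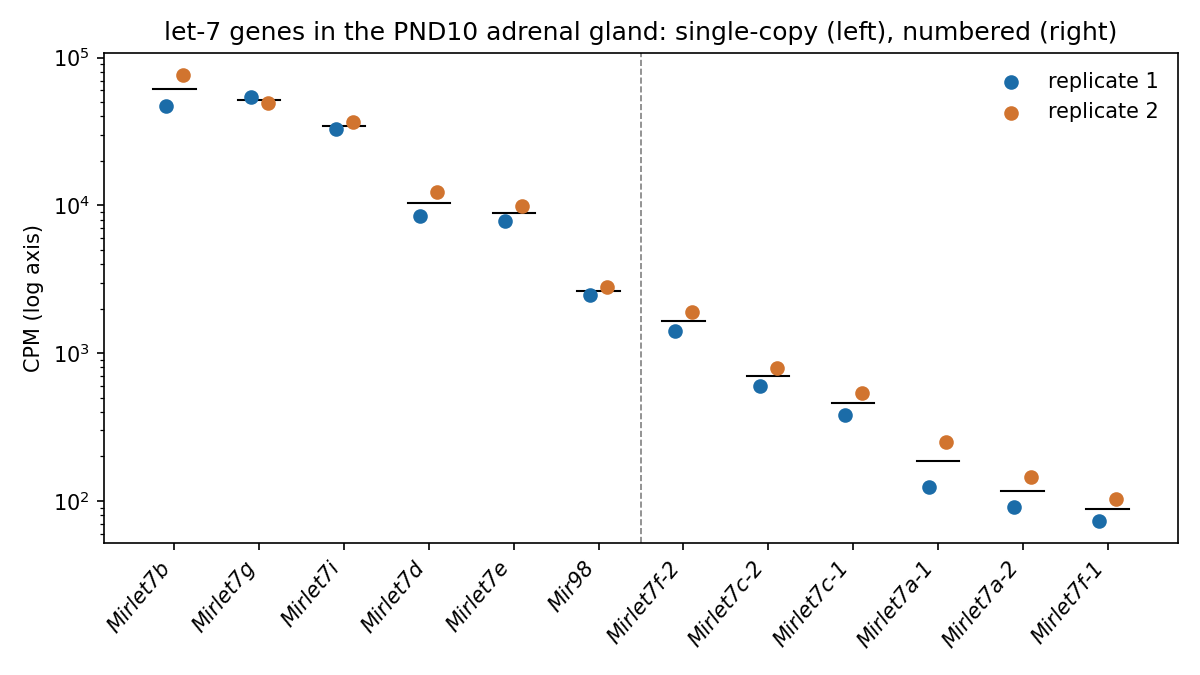
CPM on a log axis for the 6 single-copy genes (left of the dashed line) and the 6 numbered let-7 genes (right), with 1 point per library and a bar at the mean. Mirlet7b, Mirlet7g and Mirlet7i lie at or above 32678 CPM in both libraries, and the numbered genes are plotted as counted, without the reads they share with another copy.

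The value of Mirlet7e rested on strand-specific counting. Counted irrespective of strand, it had 0 reads in both libraries, in place of 15925 and 31951. That count listed 621695 and 667292 reads as ambiguous between genes, and the opposite-strand Gm25927 covers all of Mirlet7e. Mirlet7d, Mirlet7g, Mirlet7i and Mir98 had identical counts either way and no read on the opposite strand. Mirlet7b gained 2 and 6 reads.

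The balance among the 6 genes was set mainly by 3 of them. Mirlet7b, Mirlet7g and Mirlet7i together held 87.6% of the counts of the 6 in the first library against 86.6% in the other, averaging 87.1% ± 0.719 (SD, n = 2). Within that sum, Mirlet7b had the larger share in replicate 2 and Mirlet7g in replicate 1. For Mirlet7b the share was 30.7% (exact 95% interval 30.5 to 30.8%) in the first library against 40.7% (40.6 to 40.8%) in the other. Mirlet7g took 35.5% (35.4 to 35.7%) and 26.2% (26.1 to 26.3%). Their ratio, Mirlet7b over Mirlet7g, was 0.863 in replicate 1 and 1.55 in replicate 2. By the animal numbers, though not by the shared donor entry, each animal gave a single library. The animal and its library preparation therefore cannot be told apart.

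The remaining shares were closer between the libraries. Mirlet7i took 21.4% and 19.7%, Mirlet7d 5.60% and 6.57%, Mirlet7e 5.16% and 5.33%, and Mir98 1.62% and 1.49%. From the third place down, the order was the same in both libraries. Grouped by host, the 3 genes in noncoding exons (Mirlet7b, Mirlet7d and Mirlet7i) took 57.7% of the 6-gene sum in replicate 1 and 67.0% in replicate 2. The 3 in introns of coding genes (Mirlet7e, Mirlet7g and Mir98) took 42.3% and 33.0%. The members of a group did not all move alike. In the first group the shares of Mirlet7b and Mirlet7d rose and that of Mirlet7i fell. In the other, Mirlet7e rose slightly while Mirlet7g and Mir98 fell. The largest changes were 10.0 percentage points for Mirlet7b and -9.32 for Mirlet7g. Shares of 1 sum cannot all rise, so a fall in share need not be a fall in level. Mirlet7i (32678 and 36762 CPM) and Mir98 (2468 and 2789 CPM) were higher in replicate 2 by CPM, whereas Mirlet7g was lower by both measures.

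**Figure D3:**
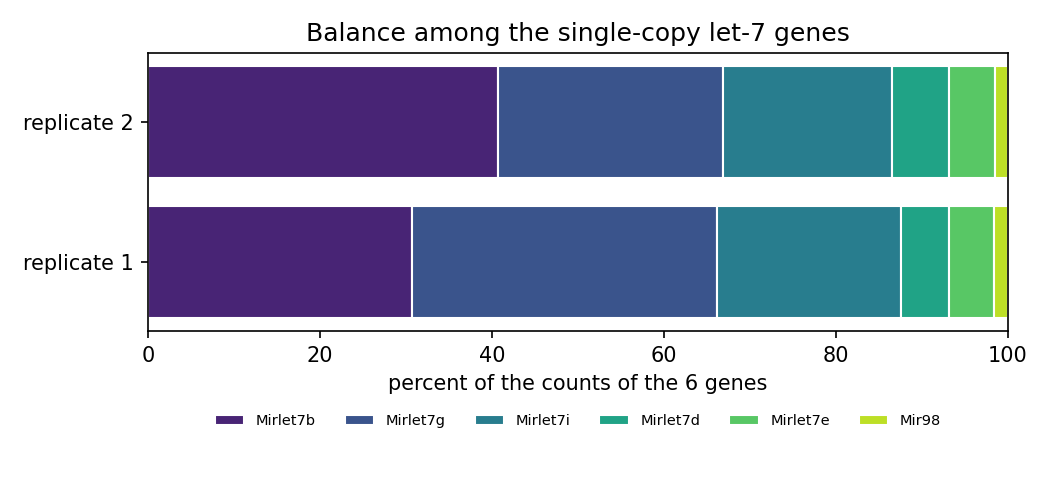
Share of the summed counts of the 6 genes taken by each (horizontal axis, percent), with 1 stacked bar per library. Mirlet7b fills 30.7% of the bar of replicate 1 and 40.7% of that of replicate 2, Mirlet7g 35.5% and 26.2%, while Mirlet7i, Mirlet7d, Mirlet7e and Mir98 keep their order.

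Of the 6 genes, 4 have a microRNA gene less than 10 kb away on the same strand, and Mirlet7g and Mirlet7i have none. Mirlet7e lies between Mir99b (94 bases away) and Mir125a (367 bases away), members of the miR-99/100 and miR-125 families that accompany let-7 genes in several clusters. Mir99b was counted at 12367 and 14723 CPM, and Mirlet7e stood at 0.636 and 0.676 of it. Mir125a was counted at 7747 and 4239 CPM, so that the ratio of Mirlet7e to Mir125a was 1.02 in replicate 1 and 2.35 in replicate 2. Within this cluster Mirlet7e and Mir99b kept nearly the same ratio in both libraries, and Mir125a did not keep its ratio to either.

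Beside the other 3 clustered genes lie numbered let-7 genes, whose mature sequence is shared with a second copy. Reads that aligned to several places were not counted, and these made up 25.0% and 27.2% of all reads, or 4.28 and 3.89 per count of the 6 single-copy genes. The numbered genes are therefore undercounted by an unknown amount and are given as counted, with no ranking against the single-copy genes. Mirlet7c-2, 621 bases from Mirlet7b, was counted at 601 and 796 CPM. Mirlet7f-1 and Mirlet7a-1, 1714 and 2064 bases from Mirlet7d, were counted at 73.1 and 103 CPM and at 123 and 249 CPM. Mirlet7f-2, 785 bases from Mir98 in the same host, was counted at 1402 and 1894 CPM. Mirlet7c-1 (379 and 534 CPM) and Mirlet7a-2 (90.4 and 144 CPM) lie near no single-copy gene. As counted, the 6 single-copy genes supplied 98.3% and 98.0% of the counts of all 12 let-7 genes, which is no estimate of their true part in the family.

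**Figure D4:**
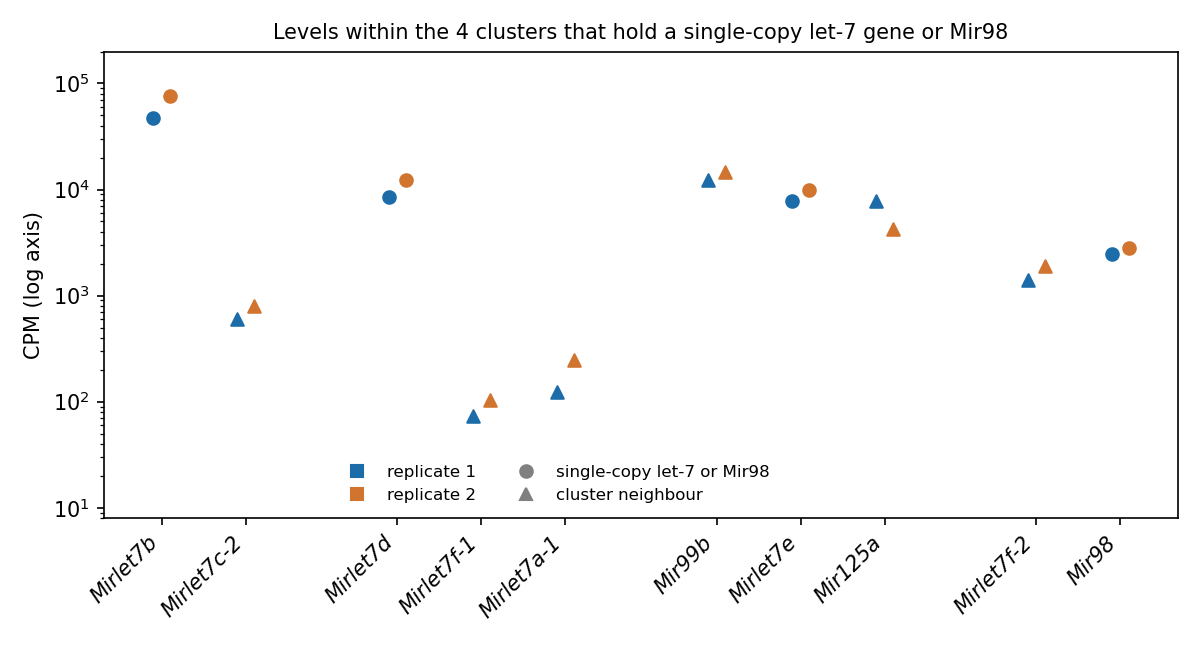
CPM on a log axis for the genes of the 4 clusters that hold Mirlet7b, Mirlet7d, Mirlet7e or Mir98, with circles for these genes, triangles for their neighbours and 1 colour per library. Mirlet7e and Mir99b are both higher in replicate 2, whereas Mir125a is lower, and the numbered let-7 neighbours lack the reads they share with a second copy.

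Replicate 1 held 2023410 and replicate 2 held 3208821 assigned reads, 38.3% and 37.5% of all reads. Of the markers set out for the medulla, all 3 neuroendocrine genes (Mir375, Mir7b and Mir137) exceeded 10 CPM in both libraries, with summed shares of 2.80% and 3.48%. Mir375 made up most of that sum (24805 and 31924 CPM), whereas Mir7b (2333 and 2081 CPM) and Mir137 (869 and 774 CPM) had lower values in replicate 2. No list for the steroid-producing cortex was set out. Genes of other tissues were present too, with Mir122 of the liver at 2.67% and 0.928% and the 2 striated muscle genes at 1.12% and 0.449%. Endothelial Mir126a took 17.8% and 4.79%. The marker sums of red blood cells and kidney were lower in replicate 2, and those of smooth muscle, leukocytes and epithelium higher. The part of these differences in the levels above was not tested. Relative to a total without Mir126a, the summed share of the 6 genes was 18.5% and 19.6%.

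Each gene that reached 10 CPM in 1 library or both, 329 in all, was then compared between the libraries, and all 6 single-copy genes passed this floor in both. The log2 ratio is replicate 2 over replicate 1, scaled by TMM (trimmed mean of M-values) with 1 CPM added. The test was the two-sided exact binomial test on the conditional share of counts, adjusted by Benjamini-Hochberg over the 329 genes with a threshold of 0.05. By this test, which sets 2 libraries against counting error alone, all 6 genes differed. Over all genes tested 73.9% did, so the call itself is no result about let-7. Of the 6, 5 were higher in replicate 2, against 37.7% of all genes, and 1, Mirlet7g, was lower, against 36.2%. Among the 93 genes whose mean reached 1000 CPM, which are closer to the 6 in level, 54 were higher and 33 lower. The median log2 ratio of the 6 was 0.31, beside -0.0052 over all genes tested and 0.22 over those 93. None of the 6 differed by 1 log2 unit or more, as 22.2% of all genes tested did.

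Mirlet7b had the largest log2 ratio of the 6, 0.75 (exact 95% interval 0.74 to 0.76), which is 1.68-fold higher in replicate 2. Mirlet7d followed at 0.57 (0.54 to 0.60) and Mirlet7e at 0.39 (0.36 to 0.41). Mirlet7i (0.22, 0.20 to 0.23) and Mir98 (0.22, 0.17 to 0.27) were close to each other, and Mir98, the gene with the fewest counts, had the highest adjusted p of the 6 by that exact test, 1.93e-18. Relative to library totals without Mir126a, both turned to slightly lower in replicate 2 (-0.042 for Mirlet7i and -0.035 for Mir98, the latter no longer called), a scaling that moved the median of all genes to -0.26. Mirlet7g was lower at -0.10 (-0.11 to -0.088), and 9.73% of the genes tested had a smaller absolute ratio. Of the 6 numbered let-7 genes all were higher in replicate 2, with log2 ratios from 0.45 to 1.06 and a median of 0.54, values that rest on the reads they do not share.

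**Figure D5:**
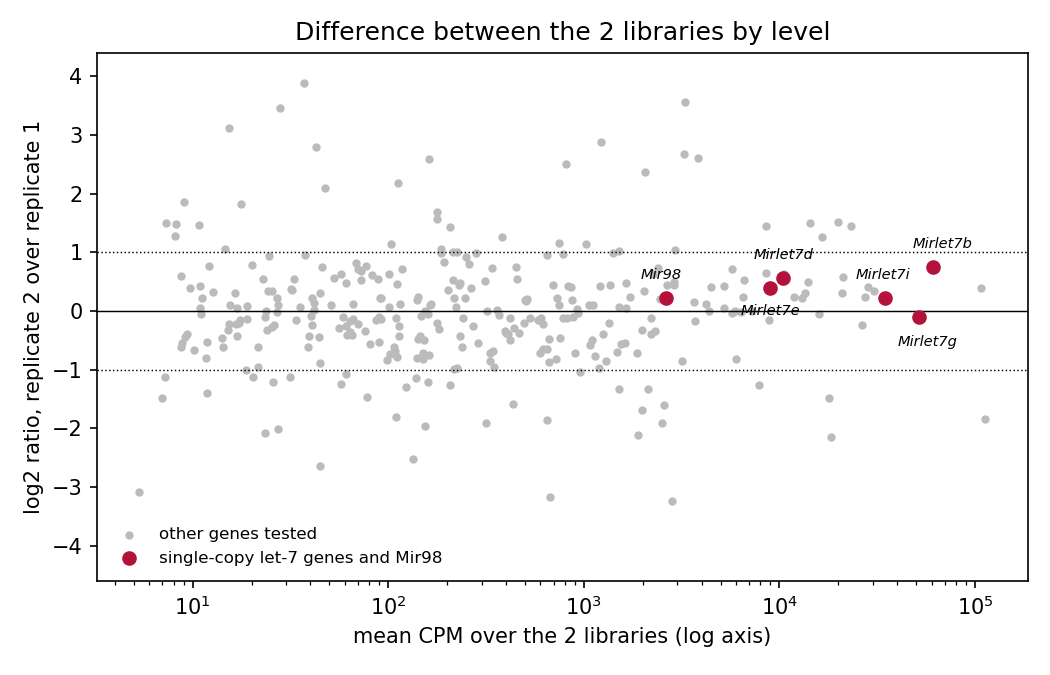
Log2 ratio of replicate 2 over replicate 1 (vertical axis, TMM-scaled, 1 CPM added) against mean CPM (log axis) for the 329 genes tested, with the 6 single-copy genes in red and dotted lines at 1 log2 unit either way. The 6 genes lie between -0.10 and 0.75, inside the dotted lines.

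The miR-99/100 and miR-125 genes that share clusters with let-7 genes were compared in the same way. Of the 6 genes of this list, 4 were higher in replicate 2 (Mir99a, Mir99b, Mir100 and Mir125b-2), 1 was lower (Mir125a, log2 ratio -0.82) and Mir125b-1 did not pass (-0.11, adjusted p = 0.098 by the exact test). The median was 0.39. Mir125b-1 and Mir125b-2 are themselves numbered copies and are uncertain for the reason given above.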

How the data were processed

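MicroRNA-seq counts were used from 2 adrenal libraries of 1 group. The authors deposited 1 table of raw, unnormalized read counts for each library, on mm10 with GENCODE M21 according to the text deposited beside it. By their values, the 3 columns hold counts irrespective of strand, on the gene's strand (used here) and on the opposite strand. Aligner and counter: not given in the sources used here. The summary lines for unmapped, multiply aligned, ambiguous and unannotated reads stayed out of totals. All 2202 identifiers matched M21, which gave symbols and coordinates. Counts are per hairpin, so 5′ and 3′ arms were not separated.

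A single count equals 0.494 CPM in replicate 1 but 0.312 CPM in the deeper replicate 2. No replicated comparison exists, so edgeR 4.0.16 supplied only TMM factors (DESeq2 1.42.0 size factors as an alternative). The exact test was computed with SciPy 1.17.1 in Python 3.11.15. It was first tried on simulated counts that held known changes and counting error only, without TMM scaling. Sequences came from RefSeq tables on GRCm38.p6, and 1 hairpin loop is not reported here. The members, the lists and the tests were chosen with earlier results of these data known. Named genes were the 6 members, the 6 numbered let-7 genes, same-strand neighbours within 10 kb, genes sharing the seed, the listed partners and markers, and for each member the non-member gene nearest in level. Gm25927 and Mir7j were added after their values were seen. Alternatives covered strand, denominator, hairpin length, scaling, floor, pseudocount and leaving out each library. Totals without Mir126a were added after the data were seen.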

Additional observations from a re-analysis of the deposited data

Results flagged for a closer look

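Mirlet7b had 6 reads on the opposite strand in replicate 2, above the 3 reads that a count of 0 allows, in a column that the comparisons did not use. In replicate 1 it had 2. These are 0.00246% and 0.00212% of its reads on the gene's own strand, and the other 5 single-copy genes had none in either library.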

How the results depend on the processing

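Counted irrespective of strand, the median level of the 6 genes moved from 22558 to 30343 CPM, their summed share from 17.0% to 21.6% and the part of Mirlet7b, Mirlet7g and Mirlet7i in the 6-gene sum from 87.1% to 91.9%. Mirlet7e falls to 0 by construction in that count, and fewer reads enter the total. Among the reads that drop out are nearly all of Mir126a, which went from 359617 and 153788 counts to 15 and 3. Larger denominators lowered the values by construction, to 8546 and 6.42% relative to all reads and to 13337.5 CPM and 10.02% with multiply aligned reads added. Per 100 bases of hairpin the median level was 19766 and the part of the 3 genes 88.6%. Leaving out either library gave 20606 to 24510 CPM, 15.2 to 18.7% and 86.6 to 87.6%. The comparison of the libraries needs both and could not be repeated with 1 left out. Relative to library totals without Mir126a, the median level was 25402 CPM, 3 of the 6 genes were higher and 2 lower in replicate 2, and their median log2 ratio was 0.046, with Mirlet7i at -0.042 and Mir98 at -0.035. Under that scaling 91 genes were called higher and 166 lower, beside 124 and 119 with TMM. Over 6 alternatives, 33 of 35 log2 ratios of single genes kept their direction and call. The pseudocount alternatives do not enter the test, so calls under them were kept by construction. At the levels of these genes they could hardly change a ratio either. The count of genes called ran from 195, at a floor of 100 CPM that tests fewer genes, to 257, relative to library totals without Mir126a. With 2 libraries, the SD of each level is itself uncertain.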

Other observations

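For each single-copy gene, the microRNA gene outside the 6 nearest in level was found among the 296 such genes with at least 10 CPM in both libraries, by the larger of the 2 differences in log2(CPM + 1). Mirlet7d was nearest to Mir30e (8661 and 11919 CPM), with a difference of at most 0.041 in either library. Mir98 was nearest to Mir28a (2334 and 2598 CPM), within 0.10, and Mirlet7e to Mir30a (6769 and 10254 CPM), within 0.22. Mirlet7i was nearest to Mir143 (27532 and 33734 CPM), within 0.25. Outside the 6, the nearest genes to Mirlet7b and Mirlet7g were farther off, with differences of 1.02 to Mir378a and 0.98 to Mir143.

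RefSeq gives the let-7 seed to 2 genes outside the 12, Mir1961 and Mir7k, and both had 0 counts in both libraries. The limits that a count of 0 allows are 1.48 CPM for replicate 1, with fewer reads, and 0.935 CPM for replicate 2. Mir7j, whose mature form let-7j has 1 mismatch to let-7i-5p over 22 bases, was counted at 49.9 and 51.7 CPM. Mirlet7i was counted 655 times higher in replicate 1 and 711 times higher in replicate 2.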
